A study of Mus musculus with 6 samples.

Results

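The genes described here are inhibitory receptors of myeloid cells and the phosphatase that many of them use. They are the Siglecs, or sialic acid binding immunoglobulin-like lectins, Siglech, Siglece, Siglecf, Cd33 and Cd22, the immunoglobulin-like receptors Lair1, Pilra, Cd300a and Lilrb4a, and the phosphatase Ptpn6. They were taken by symbol, whatever their values, from a table of 39017 gene identifiers. Of the 10 genes, 9 had a row in the table, and the identifier of Lilrb4a had none. RNA came from hippocampus of female C57BL/6 mice of the genotype Tmem119-Cre:RiboTag. RiboTag is an Rpl22 allele whose ribosomal protein acquires an HA tag once Cre has recombined it. Cre was under Tmem119, a gene of microglia, so the tag is meant to mark microglial ribosomes. Anti-HA beads yielded the RNA of 3 libraries (IP), RNA taken without antibody made up another 3 (input), and each IP library shares a title code with 1 input library. All 6 libraries carry both alleles. The labels name no Kdm6a deletion and no disease model for them, and give no age.

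Siglecs are receptors that recognise sialic acid, the acidic sugar that caps many glycans on the surface of cells. Most of them carry an immunoreceptor tyrosine-based inhibitory motif, the ITIM, in the cytoplasmic tail. Once phosphorylated by kinases of the Src family, the ITIM recruits the phosphatase encoded by Ptpn6, which counteracts activating signals that run through adaptors such as the products of Tyrobp and Fcer1g. Lair1, Pilra, Cd300a and Lilrb4a encode ITIM receptors with other ligands: collagens and C1q for LAIR1, sialylated proteins for PILRA, and phosphatidylserine and phosphatidylethanolamine for CD300A. In brain, such receptors are known mainly from microglia, where they are thought to hold phagocytosis and inflammatory signalling in check.

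Library totals ran from 10757351 to 20422140 counts. Levels are given as CPM, counts scaled to a common library size. A gene with no count could still hold up to 3 counts in a library, or 0.14 to 0.28 CPM, a limit that covers counting error only. Tmem119, the gene that drives Cre, rose from 26.2 ± 2.39 to 2236 ± 162 CPM (input to IP, SD, n = 3 each), while Rpl22 was at 66.0 ± 3.04 and 69.5 ± 13.3 CPM. All libraries bear the label microglia, but input held 1952 ± 228 CPM of the neuronal gene Snap25 and IP still held 167 ± 19.7 CPM. Input was therefore read as whole tissue. In such bulk RNA, fewer cells of a type and less RNA per cell cannot be told apart. A bead control from mice that lack the tag was not analysed here.

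The abundant Siglecs were recovered with the tagged ribosomes at levels far above those of the tissue. Siglech, a mouse Siglec that lacks an ITIM and signals through the Tyrobp adaptor (ENSMUSG00000051504, chromosome 7, 55768178 to 55778925, plus strand, GRCm38), gave 6.24, 8.64 and 10.9 CPM with input libraries 1, 2 and 3, against 405, 525 and 425 CPM with IP libraries 1, 2 and 3. Every IP library was above every input library, and input library 3, the highest input, was paired with neither the highest nor the lowest IP library. The log2 fold of IP over input was 5.71 with a standard error (SE) of 0.25, a 52.5-fold difference that was seen in all 3 pairs (edgeR adjusted p = 2.3e-07).

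Cd33, the Siglec after which the CD33-related branch of the family is named (ENSMUSG00000004609, chromosome 7, 43524216 to 43544428, minus strand), gave 1.96, 3.02 and 5.28 CPM with input libraries 1, 2 and 3, against 156, 256 and 212 CPM with the IP libraries. The groups did not overlap, and library 1 was the lowest of both groups. Its log2 fold was 5.93 (SE 0.39, edgeR adjusted p = 2e-06), in the same direction in all 3 pairs. Siglece, an ITIM receptor of neutrophils and macrophages (ENSMUSG00000030474, chromosome 7, 43651070 to 43660161, minus strand), gave 2.89, 2.34 and 1.74 CPM with input, against 106, 131 and 87.6 CPM with IP. Library 3 was the lowest of both groups, and the groups did not overlap. The log2 fold was 5.53 (SE 0.29, edgeR adjusted p = 5e-07), in the same direction in all 3 pairs.

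**Figure D1:**
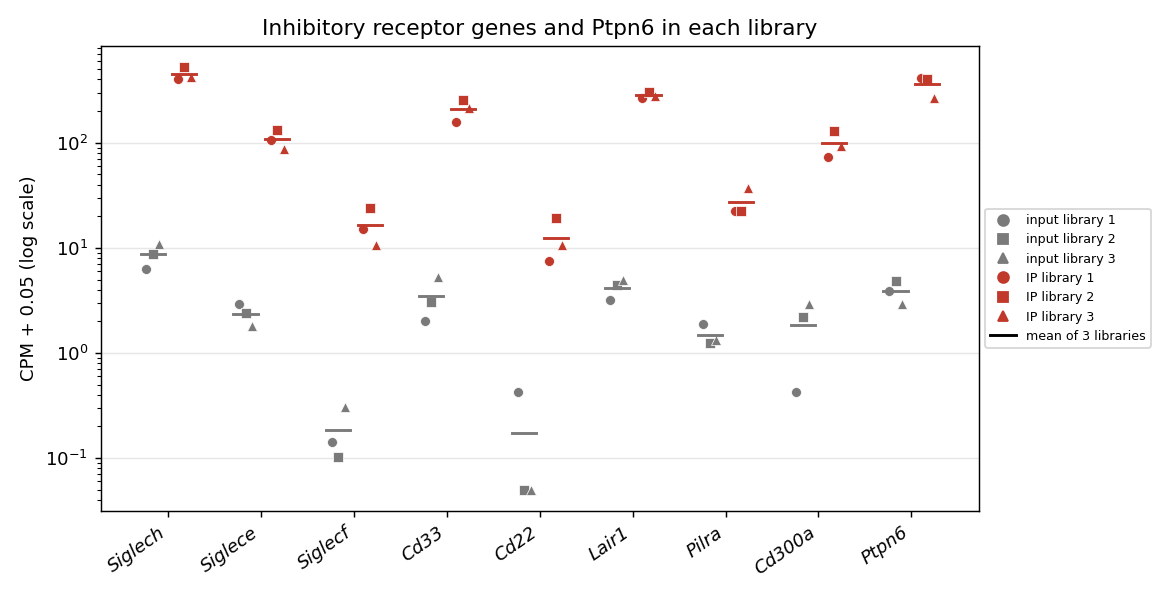
Level of each gene in each library, as CPM + 0.05 on a log axis, with input libraries in grey, IP libraries in red, library numbers as symbols and the mean of 3 libraries as a bar. For all 9 genes the red points lie above the grey ones, from Siglech at 405 to 525 CPM in IP down to Cd22 at 7.50 to 19.2 CPM, whose input libraries 2 and 3 are at 0.

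Siglecf and Cd22, known mainly from other blood cells, were rare in both kinds of RNA. Siglecf, a receptor of eosinophils and alveolar macrophages (ENSMUSG00000039013, chromosome 7, 43351341 to 43359531, plus strand), held 2, 1 and 5 counts in input libraries 1, 2 and 3 and 281, 282 and 114 counts in IP, or 15.2, 24.0 and 10.6 CPM in IP. Cd22, a restraint on B cell receptor signalling (ENSMUSG00000030577, chromosome 7, 30865402 to 30880342, minus strand), held 8, 0 and 0 counts in input and 139, 225 and 113 in IP, or 7.50, 19.2 and 10.6 CPM in IP. IP library 2 was the highest for both genes, and no input library reached the lowest IP library. With fewer than 10 counts in every input library, both genes passed the filter on low counts through the IP libraries alone, so their calls support nothing beyond the levels. The log2 fold of Siglecf was 6.88 (SE 0.74, edgeR adjusted p = 5.2e-05). Leaving out input library 3 or pair 3 gave 7.66 and 7.90, leaving out pair 2 gave 6.15, and a prior count of 2 gave 6.05.

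The fold of Cd22 rests on the 8 counts of input library 1. It was 6.51 on the log2 scale (SE 1.25, edgeR adjusted p = 0.002, higher in all 3 pairs), 7.39 with limma-voom and 5.67 with a prior count of 2. Without pair 2 it was 5.51 and no longer called (edgeR adjusted p = 0.052, against 2.39e-09 to 0.0149 under the other settings). Without input library 1 the input was at 0 and Cd22 was at least 150.2-fold higher in IP, or at least 194-fold without pair 1, taking 3 counts over the remaining input libraries as the floor. An annotated antisense model, Gm29439, lies within Cd22 on the other strand and has no row in the table.

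Most markers of the blood cells that are best known for these receptors were scarce. Among the B cell markers, Ms4a1, Pax5 and Blk had no count in any library, while Cd79b, which passed the filter through IP alone, went from 3 counts to 428 (CPM ratio of IP to input 209.5, 95% counting interval 71.2 to 1020.1). The listed markers together summed to 0.564 to 2.50 CPM in input and 8.37 to 17.1 CPM in IP. Of 5 eosinophil markers, Prg2, Il5ra and Ear6 had no count in any library, and the list summed to at most 1.93 CPM in input and 1.35 CPM in IP. Of 7 neutrophil markers, Ly6g, Retnlg, Elane and Camp had no count, and the list summed to at most 0.373 CPM in input and 6.07 CPM in IP. Of 7 markers of plasmacytoid dendritic cells, the other main cell type with Siglech, Ly6d and Klk1 had no count. Their list summed to 14.6 to 18.4 CPM in input and 657 to 872 CPM in IP, and the IP sum was nearly all Lag3, which microglia also express, at 774 ± 111 CPM. In input, Cox6a2 stood above Lag3 in libraries 2 and 3 (8.59 and 9.39 against 5.93 and 6.67 CPM). It was just below Lag3 in library 1 (8.06 against 8.20 CPM). Cox6a2 was called lower in IP at 2.66 ± 0.844 CPM (edgeR adjusted p = 0.035, log2 fold -1.70).

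Of 8 border macrophage markers, Cd163, Lyve1, Pf4 and F13a1 had no count in IP, and the list summed to 0.0934 to 8.80 CPM in IP and 1.07 to 2.82 CPM in input. Of 5 monocyte markers, Ly6c2 and Chil3 had no count in any library, and the list summed to 1.96 to 10.6 CPM in IP and 2.97 to 6.51 CPM in input, most of it Vcan, which other brain cells express too. The summed level of the 8 microglial markers went from between 338 and 440.3 CPM in input to between 22373 and 27532 CPM in IP. Of 4 endothelial markers, all 4 were called higher in IP (edgeR), where 23.8% of all 16196 tested genes were. Flt1 and Cdh5 passed the filter through IP alone, so their calls are no support. For Cldn5 the IP and input libraries overlapped (edgeR adjusted p = 0.048). The list summed to 7.76 to 35.9 CPM in input and 129 to 222 CPM in IP. The part of endothelial cells in the members' values was not tested. Markers of neurons, astrocytes and oligodendrocytes, 4 each, were all called lower (edgeR), where 23.9% of all tested genes were.

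Cd33 and Siglecf belong to a cluster of CD33-related Siglecs on chromosome 7, and the windows around their annotated starts resemble each other. They are shown because both hold runs of sequence found in no other window of the reference table. Each window runs from 250 bases before to 50 bases after the start (RefSeq, GRCm38.p6), at chr7:43533122-43533421 on the minus strand for Cd33 and at chr7:43351091-43351390 on the plus strand for Siglecf. Capitals mark exact runs of at least 8 bases shared within their best local alignment.
Cd33: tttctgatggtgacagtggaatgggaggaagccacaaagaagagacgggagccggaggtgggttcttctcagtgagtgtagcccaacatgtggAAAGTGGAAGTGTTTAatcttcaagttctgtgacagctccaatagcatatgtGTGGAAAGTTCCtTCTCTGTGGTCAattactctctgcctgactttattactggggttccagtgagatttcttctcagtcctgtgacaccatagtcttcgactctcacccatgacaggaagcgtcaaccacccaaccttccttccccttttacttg
Siglecf: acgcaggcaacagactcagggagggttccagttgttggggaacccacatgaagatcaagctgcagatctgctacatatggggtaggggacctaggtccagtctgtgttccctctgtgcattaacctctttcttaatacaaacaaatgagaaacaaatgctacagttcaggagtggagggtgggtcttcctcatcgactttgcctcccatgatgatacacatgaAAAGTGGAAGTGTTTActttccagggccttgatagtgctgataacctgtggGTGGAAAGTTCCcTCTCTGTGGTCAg
The alignment covers 80 columns, of which 62 (77.5%) are identical. It lies at -160 to -81 relative to the Cd33 start and at -30 to 49 relative to the Siglecf start. The shared stretch is thus placed differently against these RefSeq starts. The Cd33 gene model given above extends to 43544428 on the minus strand, upstream of this window, so the placement at Cd33 depends on the annotation. Of 32851 windows of this length in the reference table, the run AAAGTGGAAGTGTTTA was found, on either strand, in those of Cd33 and Siglecf alone, and so was GTGGAAAGTTCC. The third run, TCTCTGTGGTCA, was found in 9 windows of 8 genes. The IP level of Cd33 was 26.8 ± 6.47 CPM per kilobase of exon and that of Siglecf was 5.96 ± 2.44 (SD, n = 3).

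The receptors outside the Siglec family were also higher in IP. Lair1, the collagen and C1q receptor (ENSMUSG00000055541, chromosome 7, 4003402 to 4063204, minus strand), gave 3.12, 4.37 and 4.87 CPM with input libraries 1, 2 and 3, against 267, 304 and 279 CPM with IP. Its IP libraries lay closer together than those of the other members, relative to their mean, and did not overlap with input. The log2 fold was 6.10 (SE 0.22, edgeR adjusted p = 1.2e-07), higher in all 3 pairs. Cd300a, the receptor for phospholipids of dying cells (ENSMUSG00000034652, chromosome 11, 114890041 to 114904654, plus strand), gave 0.373, 2.13 and 2.87 CPM with input, against 73.9, 129 and 92.6 CPM with IP. Library 1 was the lowest of both groups, with 8 counts in input against 41 and 56 in the other input libraries, so Cd300a too reached the filter's minimum in every IP library and not in every input library. The log2 fold was 5.79 (SE 0.58, edgeR adjusted p = 3.3e-05), higher in all 3 pairs.

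Pilra had the smallest fold among the members. This ITIM receptor of sialylated proteins (ENSMUSG00000046245, chromosome 5, 137821952 to 137836281, minus strand) gave 1.82, 1.20 and 1.28 CPM with input libraries 1, 2 and 3, against 22.6, 22.6 and 36.8 CPM with IP. IP library 3 stood above the other IP libraries, and the groups did not overlap. The log2 fold was 4.24 (SE 0.41, edgeR adjusted p = 2.4e-05), an 18.9-fold difference seen in all 3 pairs. The last 670 bases of the gene overlap Zcwpw1 on the opposite strand, which itself went from 5.21 ± 0.595 to 30.5 ± 1.68 CPM. Whether the counting used strand is not given in the sources used here, so the share of Zcwpw1 reads in the Pilra value was not tested.

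Pilrb1 and Pilrb2, the activating partners of Pilra next to it on chromosome 5, had no count in any library. Their start windows nearly match that of Pilra, and 1 of them is shown beside it (RefSeq, GRCm38.p6, chr5:137836229-137836528 for Pilra and chr5:137858000-137858299 for Pilrb1, both minus strand), with capitals at aligned bases that differ.
Pilra: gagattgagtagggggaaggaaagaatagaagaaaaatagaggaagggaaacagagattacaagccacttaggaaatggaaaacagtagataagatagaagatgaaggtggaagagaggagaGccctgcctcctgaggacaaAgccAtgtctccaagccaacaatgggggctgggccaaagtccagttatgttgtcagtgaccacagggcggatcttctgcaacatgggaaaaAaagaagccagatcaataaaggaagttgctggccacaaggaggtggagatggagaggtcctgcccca
Pilrb1: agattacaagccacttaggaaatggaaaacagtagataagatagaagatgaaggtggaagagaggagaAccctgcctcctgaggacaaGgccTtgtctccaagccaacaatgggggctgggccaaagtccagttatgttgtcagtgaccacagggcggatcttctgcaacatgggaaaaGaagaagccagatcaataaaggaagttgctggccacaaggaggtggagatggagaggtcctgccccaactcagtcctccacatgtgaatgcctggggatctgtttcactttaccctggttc
Over 246 aligned bases, 242 (98.4%) were identical between Pilra and Pilrb1, and 244 (99.2%) between Pilra and Pilrb2. The aligned stretch runs from -196 to 50 at Pilra and from -250 to -5 at Pilrb1 and Pilrb2. The 3 genes are close copies, so the counts depend on how reads with several placements were treated, which is not given.

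Lilrb4a (ENSMUSG00000112148, chromosome 10, 51490956 to 51496611, plus strand) has no value, since its identifier is not among the rows. A longer annotated model on the same strand, Gm49339, covers all of it and its neighbour Lilr4b. That model held 0 counts in each input library and 36, 1 and 0 counts in IP libraries 1, 2 and 3, and these counts were not assigned to Lilrb4a.

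Ptpn6 was the most enriched of the members that were well counted in input. It encodes SHP-1, the phosphatase that binds phosphorylated ITIMs (ENSMUSG00000004266, chromosome 6, 124720707 to 124738714, minus strand). It gave 3.82, 4.84 and 2.87 CPM with input libraries 1, 2 and 3, against 416, 402 and 265 CPM with IP. Library 3 was the lowest of both groups, and the groups did not overlap. The log2 fold was 6.55 (SE 0.29, edgeR adjusted p = 2.3e-07), a 93.8-fold difference seen in all 3 pairs. An antisense model within the gene, Gm20531, held 40, 39 and 1 counts in input and 703, 469 and 230 in IP. Its level per kilobase was 0.996, 0.856 and 0.0364 of that of Ptpn6 in input libraries 1, 2 and 3 and 0.166 to 0.203 of it in the IP libraries. Reads of the pair may not have been told apart, which bears on the input level of Ptpn6, and so on its fold, more than on the IP level.

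Ptpn6 and its close relative Ptpn11, which encodes the widely expressed phosphatase SHP-2, changed places between tissue and IP. Ptpn11 stood at 124 ± 18.1 CPM (input) and 176 ± 27.7 CPM (IP). Per kilobase of exon, the level of Ptpn6 was 0.0708, 0.118 and 0.0651 of that of Ptpn11 in input libraries 1, 2 and 3, and 6.98, 5.18 and 4.41 times that of Ptpn11 in IP libraries 1, 2 and 3. The ratio thus stood below 1 in every input library and above 1 in every IP library (exact two-sided permutation p = 0.1, the smallest that 3 against 3 allows). The same held for the inositol phosphatases, which also bind ITIM receptors. The level of Inpp5d, which encodes SHIP1, per kilobase was 0.305 to 0.407 of that of its relative Inppl1 in input and 9.24 to 11.0 times it in IP (exact two-sided permutation p = 0.1).

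Of 9 listed effectors of inhibitory receptors other than Ptpn6, 8 were called higher in IP and none lower (edgeR), where 23.8% of all 16196 tested genes were higher. The median log2 fold was 4.21, against -0.10 over all tested genes. The count and the median include Ptpn22, which passed the filter through IP alone, and 7 of the other 8 were called higher. Inpp5d had a log2 fold of 6.65 (SE 0.20), Csk, which switches off Src family kinases, 3.29 (SE 0.18) and Inppl1 1.80 (SE 0.21). The log2 folds of the adaptors Dok1 and Dok3 were 4.21 (SE 0.39) and 4.26 (SE 0.39), and that of the phosphatase Ptpn18 was 5.22 (SE 0.55). Dok2 was not called, at 0.270 ± 0.391 CPM (input) and 1.63 ± 1.44 CPM (IP). Ptpn22 was counted 1 time in input and 99 times in IP (CPM ratio 145, 95% counting interval 25.5 to 5801). The smallest called difference was that of Ptpn11 (log2 fold 0.50, SE 0.18, edgeR adjusted p = 0.04). It was lost with library totals alone (edgeR adjusted p = 0.0773) and without input library 2 or 3, IP library 2 or any of the 3 pairs (edgeR adjusted p = 0.0599 to 0.255). The call of Ptpn22 was lost without input library 1 or 2 or pair 1 or 2, with an edgeR adjusted p of 0.062 to 0.0707.

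**Figure D2:**
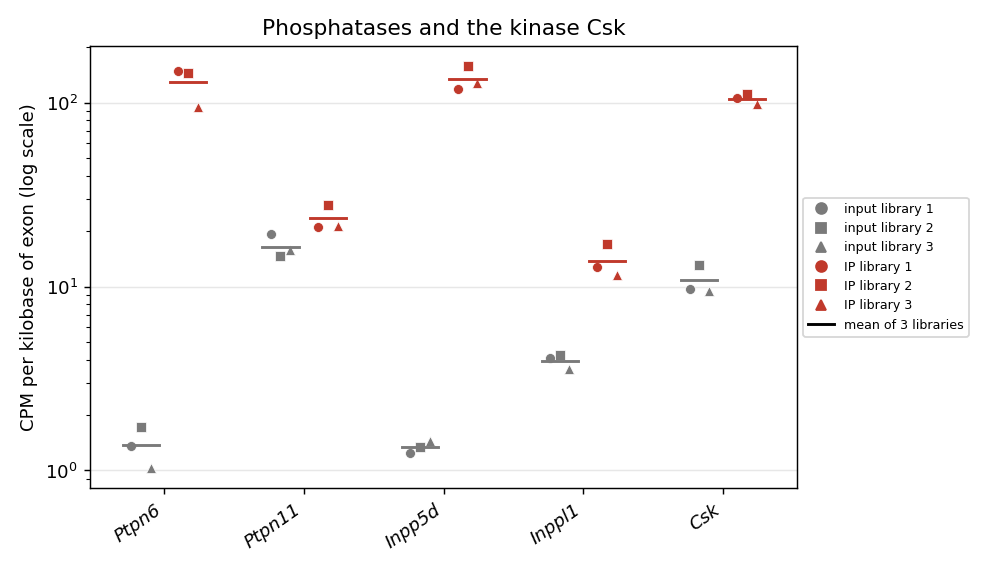
Level per kilobase of exon (CPM per kilobase, log axis) of the phosphatases Ptpn6, Ptpn11, Inpp5d and Inppl1 and of the kinase Csk in each input (grey) and IP (red) library, with the mean of 3 as a bar. Ptpn6 lies below Ptpn11 in input and above it in IP, at 129 ± 29.8 against 23.5 ± 3.69 CPM per kilobase in IP, and Inpp5d and Inppl1 change places in the same way.

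All 9 members with a row were called higher in IP (edgeR, p-values adjusted by Benjamini-Hochberg over 16196 genes), where 23.8% of all tested genes were called higher and 23.9% lower. In all 9 the IP and input libraries did not overlap, with IP above input, as for 29.0% of tested genes. Cd22, Cd300a and Siglecf passed the filter through the IP libraries alone, so their part in these counts is no support. The other 6 were all called higher. Over all 9 members, Cd22, Cd300a and Siglecf included, the median log2 fold was 5.93 and the range 4.24 to 6.88. The folds of the other 6 ran from 4.24 for Pilra to 6.55 for Ptpn6, and that of Tmem119 was 6.41 (SE 0.18). Within pairs, all 9 members together had a median log2 difference of CPM + 0.5 of 5.91, 5.62 and 5.20 in pairs 1, 2 and 3. The pairs did not rank alike for every gene. Pilra rose by 3.32, 3.77 and 4.39 on this scale in pairs 1, 2 and 3, whereas Cd300a rose by 6.41, 5.62 and 4.79. With 3 pairs an exact paired test cannot go below p = 0.25, so these differences between genes were not tested.

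**Figure D3:**
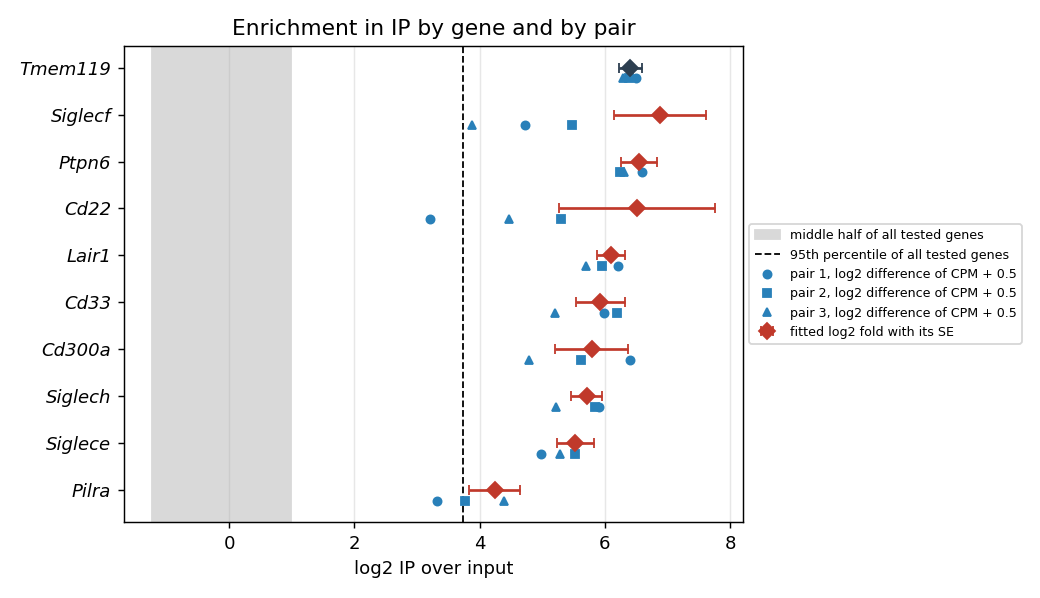
Log2 of IP over input for the 9 members and Tmem119, with the fitted value and its SE as a diamond and bar and the log2 difference of CPM + 0.5 in each pair as blue symbols. The shaded band spans the lower to the upper quartile of all tested genes (-1.23 to 0.98) and the dashed line marks their 95th percentile (3.73). The fitted values of all 9 members lie to the right of that line, Pilra nearest to it at 4.24. Cd22, Cd300a and Siglecf passed the filter through IP alone, so their place is no support.

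Per kilobase of exon, the members spanned a wide range in IP. Siglech (134 ± 19.0 CPM per kilobase, SD, n = 3 for each gene) and Ptpn6 (129 ± 29.8) were the highest, and their libraries overlapped. Siglece followed at 58.6 ± 11.8, Lair1 at 37.9 ± 2.51, Cd33 at 26.8 ± 6.47 and Cd300a at 20.8 ± 5.89. Pilra was at 8.84 ± 2.66, Siglecf at 5.96 ± 2.44 and Cd22 at 2.46 ± 1.20. The libraries of neighbours in this order overlapped for Siglech and Ptpn6, for Cd33 and Cd300a and for Pilra and Siglecf, and not for the other neighbours. Cd33 was above Cd300a in each of the 3 IP libraries. With the longest annotated transcript as the length, all 9 genes kept their place. Ptpn6 stood above Siglech in IP library 1, and Siglecf above Pilra in IP library 2.

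**Figure D4:**
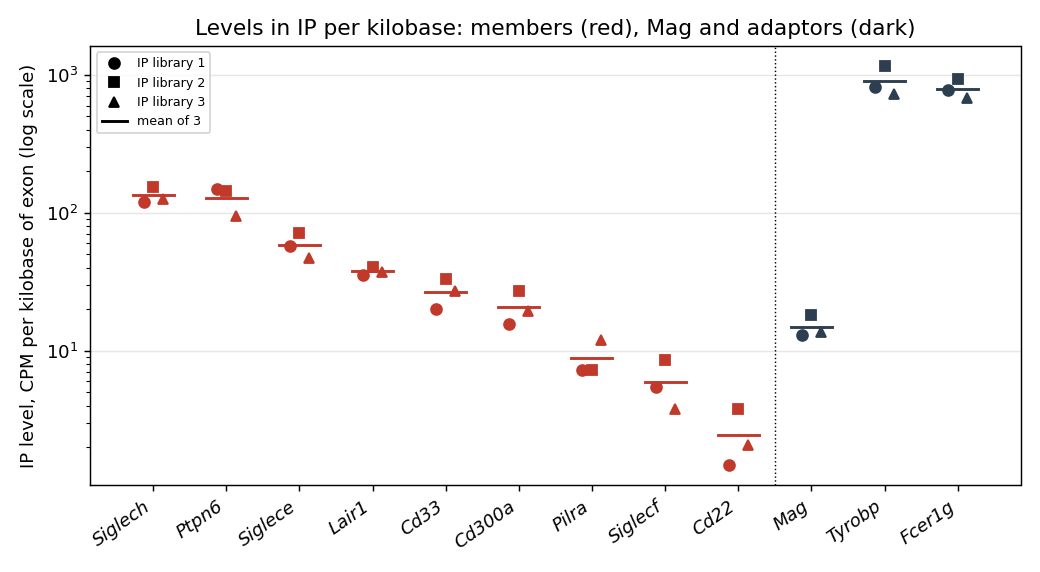
Level in each IP library per kilobase of exon (CPM per kilobase, log axis) for the 9 members in red, in the order of their means, and for the oligodendrocyte Siglec Mag and the adaptors Tyrobp and Fcer1g in dark blue, with the mean of 3 as a bar. The members run from 134 CPM per kilobase for Siglech to 2.46 for Cd22, while Mag is at 15.0 and the adaptors at 903 and 794.

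Of the 4 other Siglecs listed, the myelin Siglec fell in IP and the rest were near the limit of counting. Mag, the myelin-associated glycoprotein of oligodendrocytes, fell by 1.45 on the log2 scale (SE 0.24, edgeR adjusted p = 0.00082), from 166 ± 50.3 to 60.9 ± 11.4 CPM. It still stood at 15.0 ± 2.79 CPM per kilobase in IP, above Pilra, Siglecf and Cd22. Oligodendrocyte markers behaved likewise: Mbp was at 3490.1 ± 1001 CPM (input) and 562 ± 161 CPM (IP). How much of the low IP values of other genes comes from cells without the tag was not tested. Siglecg, a B cell Siglec that passed the filter through IP alone, was counted 1 time in input and 97 times in IP (CPM ratio 142, 95% counting interval 25.0 to 5685). Its call was lost without input library 2 or 3 or pair 1 or 2 (edgeR adjusted p = 0.0606 to 0.0766). Siglec1, a receptor of border and lymphoid macrophages, had 20 counts in IP library 1 and none elsewhere, and Siglec15 had none in any library.

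Of 17 other ITIM or inhibitory receptors listed, 12 were tested, 11 were called higher and none lower (edgeR), where 23.8% of all tested genes were higher. Of the 12, Pirb, Milr1, Clec4a2, Ceacam1, Cd200r1 and Cd84 passed the filter through IP alone, so their calls are no support, and 5 of the other 6 were called higher. The 5 include Pecam1, which is also counted among the endothelial markers above. Sirpa, which binds the signal CD47 on healthy cells, rose from 467 ± 48.4 to 2495 ± 435 CPM. Havcr2, which encodes TIM-3, rose from 5.66 ± 0.279 to 356 ± 71.6 CPM, and Fcgr2b, the inhibitory Fc receptor, from 3.68 ± 2.51 to 215 ± 36.2 CPM. Only Cd72, a B cell coreceptor chosen with its values in view, was not called, at 82.4 ± 10.7 CPM (input) and 94.4 ± 24.7 CPM (IP). The call of Pirb was lost without input library 2 or 3, IP library 1 or 2 or pair 2 (edgeR adjusted p = 0.0512 to 0.204). That of Cd200r1 was lost without IP library 1 or pair 2 (edgeR adjusted p = 0.0515 and 0.0874).

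Both tested adaptors of activating receptors were also called higher in IP, where 23.8% of all tested genes were. Tyrobp, the adaptor through which Siglech signals, rose from 13.6 ± 2.06 to 602 ± 153 CPM (log2 fold 5.47, SE 0.24, edgeR adjusted p = 2.3e-07), and Fcer1g, a related adaptor, from 16.1 ± 3.06 to 694 ± 109 CPM. Per kilobase, Tyrobp stood at 7.41 to 9.77 times the level of Siglech in input and at 5.79 to 7.49 times in IP, ranges that overlap. Hcst, the third adaptor listed, had 5 counts in input and 116 in IP and was not tested. Of 12 kinases and signalling proteins downstream, 9 were called higher and 1 lower (edgeR), against 23.8% and 23.9% of all tested genes. Without Fgr and Btk, which passed the filter through IP alone, 7 of 10 were higher. Lyn, the Src family kinase that phosphorylates ITIMs in myeloid cells, rose from 9.43 ± 1.78 to 589.8 ± 56.9 CPM, Syk from 5.36 ± 1.22 to 372 ± 49.6 CPM and Plcg2 from 4.93 ± 1.96 to 307 ± 65.9 CPM. Fyn, a Src family kinase of neurons and glia chosen with its values in view, fell from 139 ± 8.92 to 52.4 ± 15.3 CPM.

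Of 12 listed activating receptors that pair with inhibitory ones, 4 were tested and called higher (edgeR), where 23.8% of all tested genes were. Of these, Clec5a and Lilra5 passed the filter through IP alone, so their calls are no support. Trem2, a lipid receptor that signals through Tyrobp, rose from 17.3 ± 5.19 to 1028 ± 224 CPM and Cd300c2, an activating relative of Cd300a, from 4.25 ± 3.06 to 153 ± 34.8 CPM. Clec5a, another Tyrobp partner, rose from 0.738 ± 0.508 to 87.0 ± 30.3 CPM. Lilra5 rose from 0.225 ± 0.211 to 7.21 ± 3.20 CPM, and its call was lost without pair 3 (edgeR adjusted p = 0.0515). Of the other 8, Pilrb1, Pilrb2, Lilra6, Pira2, Trem1 and Sirpb1a had no count in any library. Several of these have close copies, so a value of 0 may also reflect how reads with several placements were counted.

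Of 18 tested sialyltransferases, which add sialic acid to glycans, 4 were called higher in IP, 7 lower and 7 were not called (edgeR), where 23.8% of all tested genes were higher and 23.9% lower, so the share of higher calls is near the background. The median log2 fold was -0.78. Of the 3 most abundant, St3gal2 was at 173 ± 23.8 CPM (input) and 233 ± 6.66 CPM (IP), St3gal5, the GM3 synthase, at 112 to 135 CPM over the input libraries and 146 ± 15.9 CPM in IP, and St6galnac6 at 201 ± 9.92 and 63.1 ± 10.6 CPM. The call of St3gal2 (log2 fold 0.43, SE 0.15, edgeR adjusted p = 0.041) was lost with library totals alone, with no filter and without any 1 library or pair, with an edgeR adjusted p of 0.0569 to 0.149. St3gal5 was not called and St6galnac6 was lower (log2 fold -1.67, SE 0.17).

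The following enzymes were chosen with their values in view. St3gal6 rose from 9.84 ± 2.06 to 154 ± 9.07 CPM (log2 fold 3.97, SE 0.21), St6gal1 from 27.3 ± 1.02 to 103 ± 37.8 CPM and St6galnac4 from 44.7 ± 6.73 to 177 ± 29.3 CPM. St6galnac5, an enzyme of brain gangliosides, fell from 229 ± 39.3 to 23.6 ± 5.70 CPM (log2 fold -3.28, SE 0.23). St8sia3 fell from 119 ± 17.5 to 21.6 ± 4.51 CPM and St8sia5 from 70.3 ± 8.40 to 9.54 ± 3.81 CPM. Both add sialic acid to an existing sialic acid. Among the other enzymes called lower, St3gal3, St3gal4 and St8sia1 lost their calls without some libraries. For St3gal3 these were input library 1, IP library 1 or 2 and pair 1 or 2 (edgeR adjusted p up to 0.166), for St3gal4 input library 2 or 3, IP library 2 and pair 2 or 3 (up to 0.2), and for St8sia1 input library 3 and pair 1 or 3 (up to 0.0761).

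Of 7 tested genes of sialic acid synthesis and turnover, 3 were called higher and 1 lower (edgeR), against the same background. Cmas, which activates sialic acid for transfer, fell from 92.5 ± 7.90 to 47.4 ± 9.97 CPM. Gne, which starts the synthesis, was not called, at 44.0 ± 1.51 CPM (input) and 38.9 ± 10.9 CPM (IP). Neither was Casd1, which adds acetyl groups and was chosen with its values in view, at 32.9 ± 7.31 and 39.0 ± 2.13 CPM. Npl, the lyase that breaks sialic acid down, chosen with its values in view, rose from 3.04 ± 0.475 to 34.2 ± 16.4 CPM (log2 fold 3.49, SE 0.42). The other called genes were Nans and Siae, the latter also chosen with its values in view, with an edgeR adjusted p of 0.019 and 0.041. The call of Nans was lost without input library 1 or 3, IP library 1 or 2 or pair 1 or 2 (edgeR adjusted p up to 0.215). That of Siae was lost with library totals alone, with no filter and without any input library, IP library 2 or any pair (edgeR adjusted p up to 0.167). Cmah, which makes the hydroxylated form of sialic acid that mouse CD22 prefers, had no count in any library.

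Among the sialidases, which remove sialic acid, none of 4 was called in IP against input (edgeR). Neu1, the lysosomal one, was at 85.8 ± 4.12 and 81.3 ± 21.7 CPM, and Neu4 at 10.6 ± 2.22 and 5.24 ± 1.24 CPM. Neu2, chosen with its values in view, was at 6.75 ± 3.11 and 0.765 ± 1.19 CPM. It was called lower with DESeq2 and limma-voom and without IP library 2 or pair 2, with an adjusted p of 0.00682 to 0.0495. Ctsa, the lysosomal protein that protects Neu1, rose from 95.6 ± 3.69 to 869 ± 122 CPM (log2 fold 3.18, SE 0.16).

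**Figure D5:**
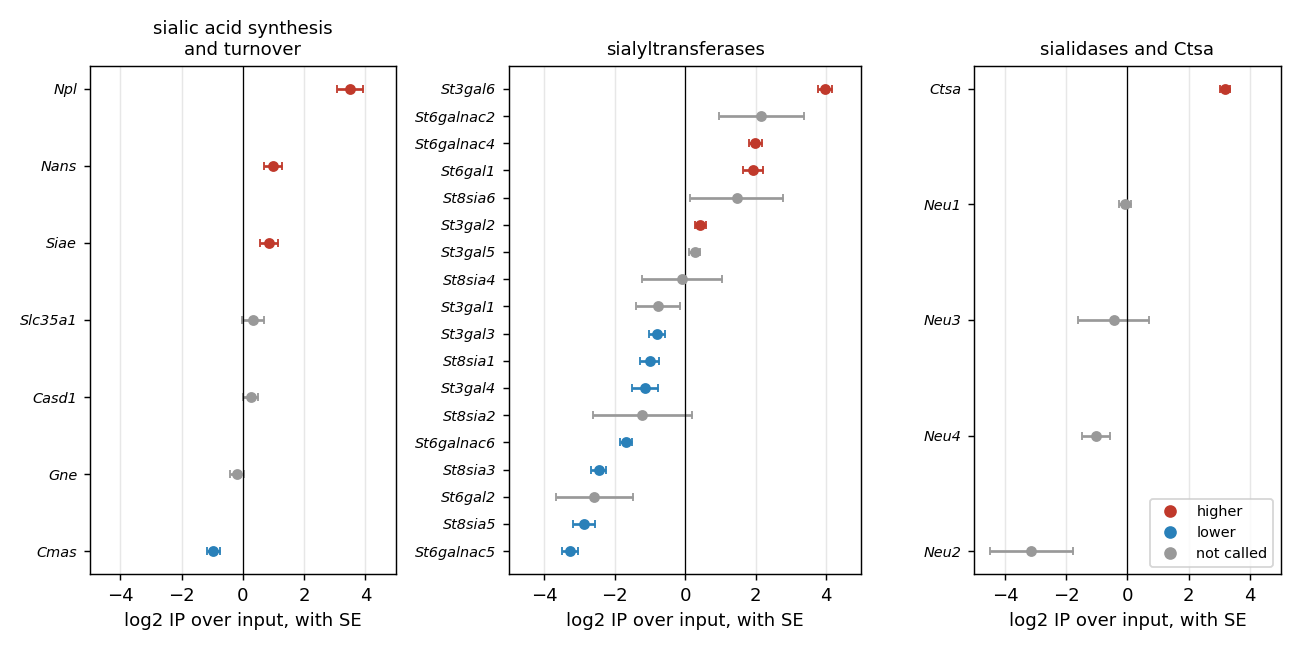
Log2 fold of IP over input with its SE for each tested gene of sialic acid synthesis and turnover, of the sialyltransferases, and of the sialidases with Ctsa. Genes called higher are red, lower blue and not called grey. The sialyltransferases spread to both sides of 0, from -3.28 for St6galnac5 to 3.97 for St3gal6.

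Protein ligands of the receptors did not move in 1 direction. The C1q genes, whose product is a LAIR1 ligand, were the highest of 11 tested ligand genes in IP: C1qa rose from 109 ± 10.1 to 6863 ± 904 CPM, C1qb from 83.5 to 107 CPM over the input libraries to 6809 ± 1313 CPM and C1qc from 94.2 ± 8.62 to 5760.2 ± 744 CPM. Npdc1 and Pianp, neuronal genes that encode PILRA ligands and were chosen with their values in view, fell from 456 ± 18.3 to 76.7 ± 8.88 CPM and from 297 ± 28.3 to 60.1 ± 3.76 CPM. The third ligand gene called lower was Apoe, also chosen with its values in view, at 3717 ± 516 CPM (input) and 1460.4 ± 286 CPM (IP). In all, 6 of the 11 were called higher and 3 lower (edgeR), against 23.8% and 23.9% of all tested genes. The share of lower calls is thus near the background. Without Ptprc, which passed the filter through IP alone, 5 of 10 were higher.

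The tested genes whose log2 levels over the 6 libraries were nearest to those of Siglech, by Euclidean distance of log2(CPM + 0.5), were P2ry6 (distance 0.68), Lyn (0.83) and Entpd1 (0.86). Those nearest to Ptpn6 were Vav1 (0.71), Plcg2 (0.73) and Dock8 (0.77).

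The start windows of the members were also searched for short forms of the site bound by ETS factors such as PU.1, a regulator of myeloid genes. The reference table held windows for 9 of the 10 members, all but Lilrb4a. GAGGAA, on either strand, was found in 7 of the 9 and in 28.3% of 32851 windows of the same 300 bases, and GGAAGT in 5 of the 9 and in 23.8%. The longer form GAGGAAGT, which contains both, was found in none of the 9 and in 3.20% of all windows. These motifs were chosen after the levels were known, and a match is a description of letters that shows no binding.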

How the data were processed

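The authors deposited raw counts per gene for 6 libraries of polyA RNA (3 input, 3 IP). Per the submitters' processing notes, bcl2fastq 2.17, FastQC, Trimmomatic and the mm10 genome were used. The sources used here name no aligner, counting tool, strand setting or annotation. Counts were tested with edgeR 4.0.16 (R 4.3.3; TMM factors, filterByExpr with a minimum count of 10, robust quasi-likelihood test, prior count 0.125, Benjamini-Hochberg adjusted p under 0.05) over 16196 genes, in a script tested on simulated data. A gene is said to pass the filter through IP alone where it reached the minimum in all 3 IP libraries and not in all 3 input libraries. DESeq2 1.42.0 and limma 3.58.1 were alternatives. CPM used TMM factors. The SE of a log2 fold was taken as its absolute value divided by the square root of the F statistic of its test. Genes were placed and measured on GENCODE M21 (GRCm38), and promoters were aligned with Biopython 1.88. The labels do not say that libraries came from separate animals, so p-values measure the spread between these libraries, which may be technical. Within groups, libraries differed by more than sampling noise (chi-square per degree of freedom 24.1 to 48).

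The members and the gene lists were chosen with earlier results of these data known. The text names all members, every tested gene of the lists of other Siglecs, effectors, adaptors and activating partners, the 3 most abundant of other lists, and the 3 genes nearest to Siglech and Ptpn6. Other genes are said to be chosen with their values in view.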

Additional observations from a re-analysis of the deposited data

How the results depend on the processing

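All 9 members were called higher under 16 of 17 alternatives and 8 without pair 2, where Cd22 was not called. Cd22, Cd300a and Siglecf passed the filter through IP alone, so their part in these counts is no support. The other 6 members were called higher under all 17. Of 82 other listed genes tested, 17 changed their call under at least 1 alternative, 12 of them losing it and 5 gaining it, and none reversed. Over all genes, 3854 were called higher and 3869 lower. Leaving out 1 library or pair gave 2782 to 3910 higher and 2467 to 4192 lower, the lowest count of lower genes being that without pair 1. Of the 82 tested listed pathway genes other than members, 49 were called higher and 13 lower, against 23.8% and 23.9% of all tested genes. The 49 include Siglecg, Pirb, Milr1, Clec4a2, Ceacam1, Cd200r1, Cd84, Ptpn22, Fgr, Btk, Clec5a, Lilra5 and Ptprc. All of these passed the filter through IP alone, so their calls are no support. Within pairs, the members, Cd22, Cd300a and Siglecf among them, had a median log2 difference of 5.61 with a pseudocount of 0.5 CPM and of 4.75 with 2 CPM. Library totals in place of TMM factors moved the median log2 fold of all genes from -0.10 to -0.20, and every member stayed called under them.

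Deviations from the group means correlated at 0.058, 0.251 and 0.182 between libraries that share a title code and at -0.198 to 0.029 between others, over 11180 genes. Every library correlated best with its own code, a hint from the data and not from the design. With the code as a replicate block, 3698 genes were called higher, 3784 lower and all 9 members higher, with a log2 fold of 7.12 for Cd22. Here too the calls of Cd22, Cd300a and Siglecf, which passed the filter through IP alone, are no support. Of the genes named, Siglecg and Ptpn22 were not called with the block (edgeR adjusted p = 0.055 and 0.0547) and Neu2 was (0.0376).

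The search for ITIM motifs in the proteins was not run. Depth limits Siglecf and Cd22, whose input libraries held fewer than 10 counts each.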
